A study of Mus musculus with 6 samples.

Results

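The keratin gene family was examined in adult mouse bone from 3 skeletal sites, the mandible, the calvaria and the ulna. Members were all probe sets of the array that carry exactly 1 gene symbol in the platform annotation, where that symbol is Krt followed by a digit. This gave 61 probe sets for 48 genes, of 45101 probe sets in all (18194 genes), and left out the keratin-associated proteins and 1 probe set that names both Krt17 and Krt14. The members were placed by textbook expression into simple epithelial keratins (7 probe sets, 5 genes), basal keratins of stratified epithelium (5 probe sets, 3 genes), keratins of differentiated stratified epithelium (20 probe sets, 13 genes) and hair keratins (20 probe sets, 20 genes). The remaining 9 probe sets, of 7 genes, were not placed.

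Keratins are the intermediate filament proteins of epithelial cells. A type I and a type II keratin pair to build each filament, and the pair in use changes with the kind of epithelium and with the state of the cell. Filaments of stratified epithelia are anchored to desmosomes between cells and to hemidesmosomes at the basement membrane. Osteoblasts and osteocytes build their filaments mainly from vimentin. In the jaw, keratins are known from the oral mucosa and gingiva and from the odontogenic epithelium of the tooth.

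The study was a pilot on normal, untreated bone of male mice weighing 24 to 26 g, which the methods call skeletally mature Black CD57. The methods give 10 mice in 2 groups, and the sources used here do not say how many mice stand behind an array. The mandible samples included the teeth, the calvarial samples had their sutures removed, and the ulna was cleared of soft tissue and of its epiphyses. Each site was hybridised to 2 Affymetrix mouse whole-genome GeneChip arrays, so every p-value here rests on spread between replicate arrays, which may be technical. In the main test this spread was pooled over all sites. It was also moderated, which draws it towards the spread of other probe sets of like signal. A p-value or SE there is therefore not the scatter of the 2 arrays of a site alone. All samples were ground whole, and in such bulk RNA fewer cells of a type and less RNA per cell cannot be told apart.

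Signals are the deposited MAS5 values, a linear fluorescence scale on which each array has a trimmed mean of 100, and a value is meaningful only against the same probe set on other arrays. The array medians were 33.6 and 33.2 in the mandible, 32.5 and 32.4 in the calvaria and 30.97 and 30.58 in the ulna. For the tests each signal was divided by the median of its array and put on the log2 scale. A probe set entered the tests where 2 or more of its 6 signals exceeded the median of their own array, which kept 25233 probe sets, 28 keratin probe sets (21 genes) among them. Of these 28, 17 lay above the median on mandible arrays only. Such a probe set passed because it was high in the mandible and had to differ, so counts over the tested keratins are a description and not support for a difference. A call required an adjusted p below 0.05 in limma and a change of at least 2-fold. Replicate arrays differed with a median SD of 0.14 in log2 units over all tested probe sets. It was 0.12 for values above the array median and 0.61 below it, so a fold against a site where a keratin was dim is imprecise.

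In the mandible, keratins of the basal layer and of differentiated stratified epithelium stood far above their signals in the calvaria and the ulna, while simple and hair keratins mostly stayed near or below the array medians at all 3 sites. Against the ulna, 17 of the 28 tested keratin probe sets (12 genes) were called higher in the mandible and none lower, with 9.36% of all tested probe sets called higher and 11.3% lower. Against the calvaria, 20 of the 28 (14 genes) were called higher and none lower, with 4.09% of all tested probe sets called higher and 3.48% lower. Of the 28 tested keratin probe sets, none was lower in the mandible at an unadjusted p under 0.05 in limma in either comparison. The 17 that had passed the filter through mandible arrays only could not have been lower there. The median log2 difference of the tested keratins was 4.17 against the ulna and 5.27 against the calvaria, beside −0.13 and −0.09 over all tested probe sets. These medians are high partly by the filter, and over all 61 keratin probe sets they were 1.67 and 1.21, beside −0.10 and −0.06 over all probe sets.

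The same counts without the filter take in every member. With all 45037 non-control probe sets tested, 20 of the 61 keratin probe sets were called higher in the mandible than in the ulna (5.49% of all probe sets) and 1, Krt2, was called lower (6.43%). Against the calvaria 20 of 61 were called higher (2.35%) and none lower (1.87%). Both mandible arrays lay above both ulna arrays for 39 of the 61 keratin probe sets, beside 28.5% of all probe sets. They lay above both calvaria arrays for 38 of the 61, beside 24.3%. When 1 mandible array was left out the filter kept only 11 keratin probe sets, and 4 of them were called against the ulna, whichever mandible array that was. Against the calvaria 4 were called without mandible replicate 1 and 3 without mandible replicate 2. With the same 28 probe sets tested, 13 were called against the ulna and 12 against the calvaria, whichever mandible array was left out.

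**Figure D1:**
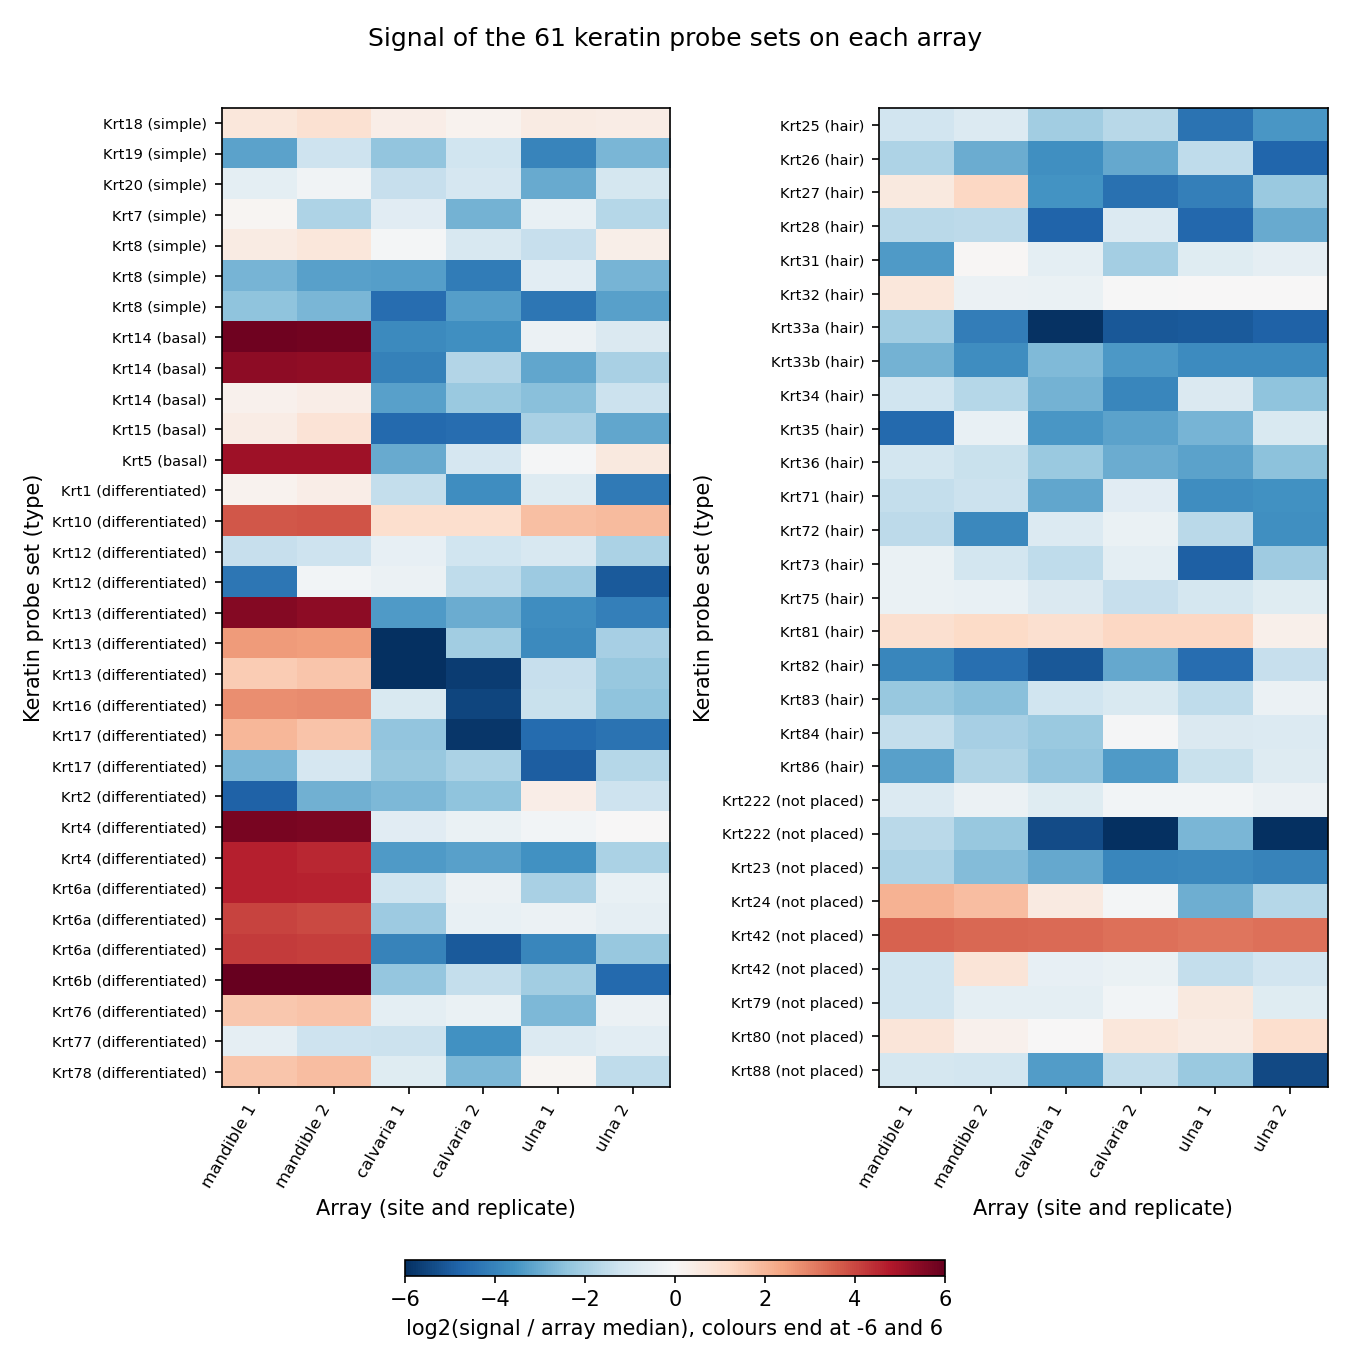
Signal of every keratin probe set on each of the 6 arrays, as log2 of the signal over the array median, with probe sets in rows grouped by type and arrays in columns. White is the array median, red above it and blue below, and the colours end at the limits marked on the bar. The deep red cells fall in the mandible columns of basal and differentiated keratins, while most of the 20 hair keratin rows are blue in all columns.

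The stretch before the transcription start is shown for 4 keratins that were called higher in the mandible against the ulna and for Krt8, which was not called, since the 4 hold a short element that the Krt8 window does not. Each sequence is the 100 bases before the start, on the strand of the gene, from RefSeq on GRCm38.p6. Capitals mark TATAA or ATAAA, the letters of a TATA box, where they fall between 45 and 20 bases before the start.
Krt5 at chr15:101712906-101713005, minus strand: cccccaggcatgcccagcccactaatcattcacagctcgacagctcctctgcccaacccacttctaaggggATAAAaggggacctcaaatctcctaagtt
Krt13 at chr11:100121567-100121666, minus strand: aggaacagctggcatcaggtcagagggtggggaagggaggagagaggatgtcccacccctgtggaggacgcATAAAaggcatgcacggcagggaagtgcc
Krt76 at chr15:101892921-101893020, minus strand: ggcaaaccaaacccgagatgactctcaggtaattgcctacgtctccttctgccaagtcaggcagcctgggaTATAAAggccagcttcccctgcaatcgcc
Krt24 at chr11:99285263-99285362, minus strand: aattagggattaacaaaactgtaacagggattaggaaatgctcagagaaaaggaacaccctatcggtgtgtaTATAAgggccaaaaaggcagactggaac
Krt8 at chr15:102004343-102004442, minus strand: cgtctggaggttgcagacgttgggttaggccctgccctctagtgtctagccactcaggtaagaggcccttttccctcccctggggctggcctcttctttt

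These letters were chosen after the sequences had been seen. They stood on the strand of the gene in 21 of 33 keratin promoters (63.6%, from 32 of the 48 genes), beside 2017 of all 32851 promoters (6.14%). On the opposite strand the shares were 3.03% and 3.46%. Keratins called higher in the mandible against the ulna and the others both had the element often, 6 of 8 promoters (75%) and 15 of 25 (60%). The 8 came from 7 of the 12 called genes and the 25 from 25 of the other 36 genes. The Krt14 window lies inside the gene. In Krt76 TATAA and ATAAA overlap as TATAAA. A match is a description of letters and not of a bound factor.

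The basal keratins Krt5 and Krt14 form the filament pair of the proliferating layer of stratified epithelium. Krt14 had signals of 1890 and 1811 in the mandible, against 2.26 and 2.52 in the calvaria and 24.2 and 16.8 in the ulna. Both mandible arrays were high, all other arrays lay below their array medians, and no groups overlapped. On the log2 scale Krt14 was higher in the mandible by 6.40 ± 0.31 (SE) against the ulna (adjusted p = 8.22e-08, limma) and by 9.56 ± 0.31 against the calvaria (adjusted p = 6.06e-09). With values under the array median raised to that median, the difference was 55.4-fold against either site. Krt5, whose promoter carries the ATAAA run, had signals of 1151 and 1133 in the mandible, against 4.05 and 16.3 in the calvaria and 29.6 and 45.5 in the ulna. The mandible arrays again stood apart, and only ulna replicate 2 among the others passed its array median. Krt5 was higher by 4.84 ± 0.50 against the ulna (adjusted p = 2.04e-05) and by 7.10 ± 0.50 against the calvaria (adjusted p = 3.98e-06), where it was at 6.09 without calvaria replicate 1 and 8.10 without calvaria replicate 2.

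The 3 basal genes were not alike in level relative to the array. Krt15, a type I keratin of basal cells and of the stem cells of the hair follicle bulge, had signals of 45.1 and 58.4 in the mandible, against 1.27 and 1.38 in the calvaria and 8.01 and 3.56 in the ulna. The mandible arrays were higher with no overlap but lay only just above the array median. Krt15 was called higher against the calvaria (log2 difference 5.23, adjusted p = 0.0436) and not against the ulna (3.15 ± 1.65, adjusted p = 0.147). With the floor at the array median its difference against the calvaria was 1.54-fold and it was no longer called, while with no filter it was also called against the ulna (adjusted p = 0.0429). Without moderation by other probe sets the SE of Krt15 against the ulna was 0.50 in place of 1.65.

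**Figure D2:**
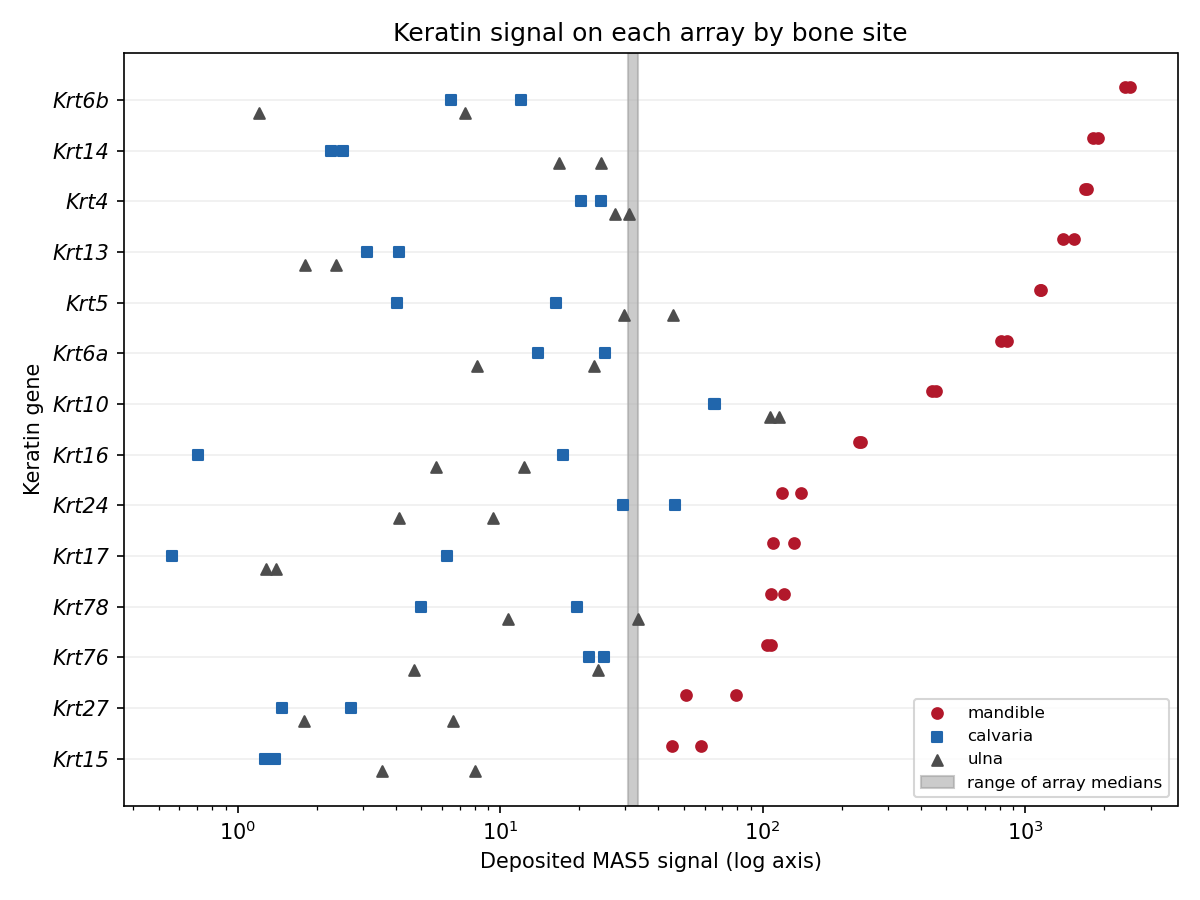
Signal of the 14 keratin genes called higher in the mandible in at least 1 comparison, with the deposited MAS5 signal on a log horizontal axis, 1 gene per row and 1 point per array, coloured by site, and the range of the array medians as a grey band. The mandible points of Krt14, Krt6b and Krt13 lie between 1391 and 2496 and those of the other sites between 1.21 and 24.2, and Krt10 is the row with all 6 points to the right of the band.

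Among keratins of differentiated epithelium, 13 of 15 tested probe sets were called higher in the mandible against the ulna and 14 of 15 against the calvaria (9.36% and 4.09% of all tested probe sets), where 12 of the 15 had passed the filter through mandible arrays only. With no filter 14 and 13 of all 20 probe sets were called higher (5.49% and 2.35% of all probe sets). Krt4 and Krt13 are the pair of the suprabasal layers of wet, non-cornified mucosa such as that of the mouth and oesophagus. Krt13 had signals of 1528 and 1391 in the mandible, against 3.11 and 4.12 in the calvaria and 2.37 and 1.80 in the ulna. The mandible arrays were high and the other 4 arrays lay far below their medians. Krt13 was higher by 9.35 ± 0.53 against the ulna (adjusted p = 2.46e-07) and by 8.63 ± 0.53 against the calvaria (adjusted p = 1.37e-06), which was 43.7-fold against the ulna with the floor at the array median. Its partner Krt4 had signals of 1722 and 1688 in the mandible, against 20.4 and 24.2 in the calvaria and 27.5 and 30.8 in the ulna. Again no groups overlapped, and of the other arrays only ulna replicate 2 passed its median, narrowly. The log2 differences of Krt4 were 5.76 ± 0.18 against the ulna (adjusted p = 4.17e-09) and 6.22 ± 0.18 against the calvaria (adjusted p = 2.47e-09).

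Krt6a and Krt6b are type II keratins of oral mucosa, nail and the hair follicle that are also induced in wounded or hyperproliferative epidermis, where they pair with Krt16 and Krt17. Krt6b had signals of 2397 and 2496 in the mandible, against 6.48 and 12.0 in the calvaria and 7.35 and 1.21 in the ulna. The calvaria and ulna arrays overlapped each other and were all below their medians. Krt6b was higher by 9.56 ± 0.67 against the ulna (adjusted p = 1.06e-06) and by 8.07 ± 0.67 against the calvaria (adjusted p = 1.23e-05), and by 73.3-fold against either with the floor. The ulna difference was 10.85 without ulna replicate 1 and 8.27 without ulna replicate 2. Krt6a had signals of 850.3 and 809 in the mandible, against 14.0 and 25.04 in the calvaria and 8.14 and 22.7 in the ulna, with the mandible apart and the other sites overlapping. The differences were 5.81 ± 0.44 against the ulna (adjusted p = 1.88e-06) and 5.43 ± 0.44 against the calvaria (adjusted p = 1.03e-05), and its ulna difference was 5.06 without ulna replicate 1 and 6.56 without ulna replicate 2.

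The type I partners Krt16 and Krt17 were called as well. Krt16 had signals of 232 and 236 in the mandible, against 17.4 and 0.71 in the calvaria and 12.3 and 5.71 in the ulna. The calvaria arrays spanned the ulna arrays, and the mandible lay above both. Krt16 was higher by 4.68 ± 1.19 against the ulna (adjusted p = 0.00839) and by 6.02 ± 1.19 against the calvaria (adjusted p = 0.00416). The calvaria difference was 8.33 without calvaria replicate 1 and 3.71 without calvaria replicate 2. Krt17, which also marks odontogenic and hair placode epithelium, had signals of 132 and 110 in the mandible, against 6.27 and 0.56 in the calvaria and 1.28 and 1.40 in the ulna. The mandible arrays were again the high ones. Krt17 was higher by 6.37 ± 1.90 against the ulna (adjusted p = 0.019) and by 5.96 against the calvaria (adjusted p = 0.0456). The calvaria difference of Krt17 was 7.70 without calvaria replicate 1, and 4.22 and no longer called without calvaria replicate 2 (adjusted p = 0.0599).

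Krt1 and Krt10 are the suprabasal pair of cornifying epidermis. Krt10 was the 1 called member that was above the array median on all 6 arrays, with signals of 442 and 456 in the mandible, against 65.7 and 65.3 in the calvaria and 107 and 116 in the ulna. The 3 sites did not overlap, with the mandible highest and the calvaria lowest. Krt10 was 3.73-fold higher in the mandible than in the ulna (log2 1.90 ± 0.14, adjusted p = 1.74e-06) and 6.66-fold higher than in the calvaria (2.74 ± 0.14, adjusted p = 3.05e-07). Krt1 had signals of 38.8 and 43.2 in the mandible, against 11.9 and 2.48 in the calvaria and 18.1 and 1.60 in the ulna, and was not called (adjusted p = 0.128 against the ulna and 0.176 against the calvaria). Its difference against the ulna was 4.56 and called without ulna replicate 1 (adjusted p = 0.0436) and 1.07 without ulna replicate 2, and without ulna replicate 2 it was called against the calvaria (2.88, adjusted p = 0.046). Krt2, a type II keratin of late epidermal differentiation, failed the filter. Its signals were 1.18 and 4.48 in the mandible, 5.01 and 6.11 in the calvaria, and 40.2 and 12.9 in the ulna, so only ulna replicate 1 passed its array median.

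Krt76, a type II keratin of the palate and gingiva, had signals of 104 and 107 in the mandible, against 21.7 and 24.9 in the calvaria and 4.71 and 23.6 in the ulna. Krt78, another type II keratin, had signals of 107 and 120.0 in the mandible, against 19.7 and 4.99 in the calvaria and 33.4 and 10.7 in the ulna. For both, the mandible arrays were above all others, while the calvaria and ulna overlapped. Krt76 was higher by 3.21 ± 0.65 against the ulna (adjusted p = 0.00222) and by 2.14 ± 0.65 against the calvaria (adjusted p = 0.0373). Krt78 was higher by 2.47 ± 0.70 against the ulna (adjusted p = 0.0147) and by 3.48 ± 0.70 against the calvaria (adjusted p = 0.0046). Single arrays moved these values. Without single arrays Krt76 was not called against the calvaria (adjusted p = 0.143 without calvaria replicate 1 and 0.114 without calvaria replicate 2). Krt78 was not called against the ulna without mandible replicate 1, mandible replicate 2 or ulna replicate 2 (adjusted p = 0.0813, 0.105 and 0.102), nor against the calvaria without mandible replicate 2 (0.0556). The difference of Krt76 against the ulna was 2.03 without ulna replicate 1 and 4.38 without ulna replicate 2, and that of Krt78 was 3.28 and 1.66. Against the calvaria Krt78 was at 4.46 without calvaria replicate 1 and 2.49 without calvaria replicate 2.

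**Figure D3:**
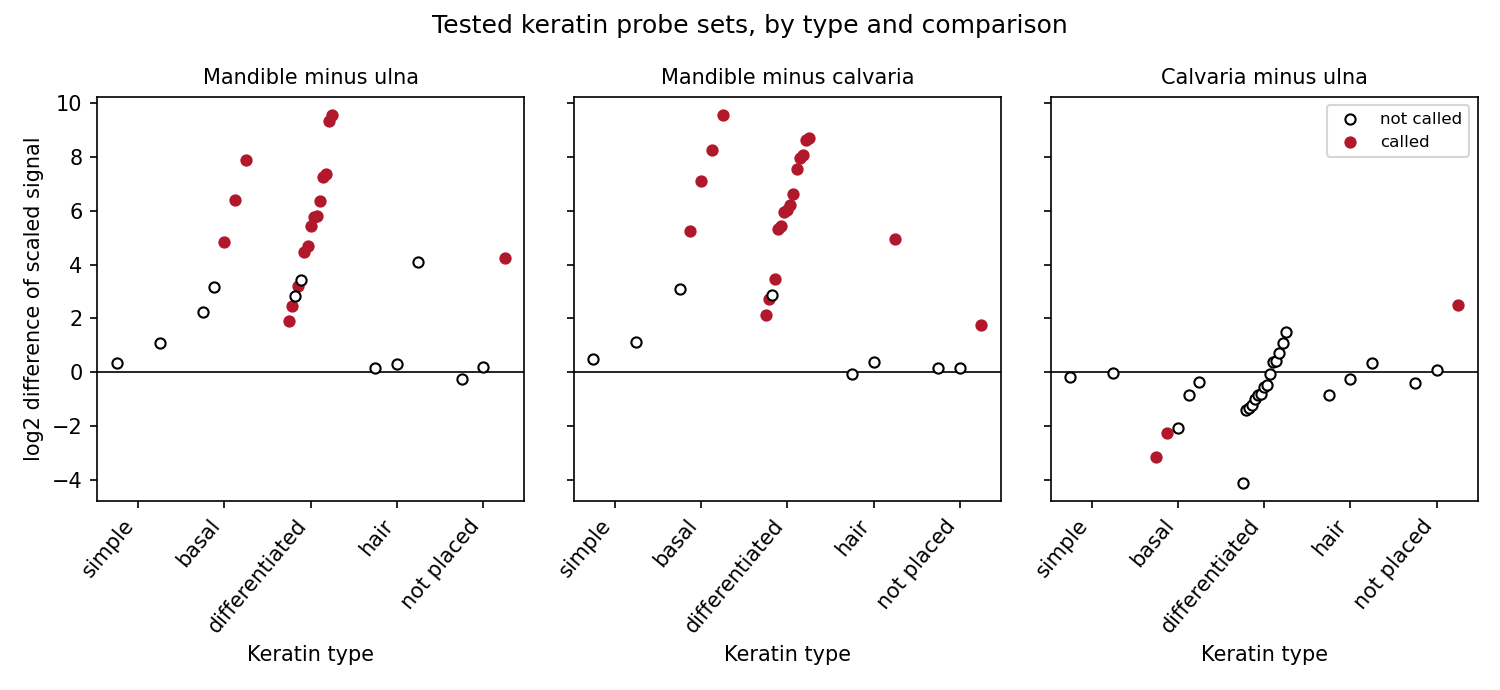
Log2 differences of the tested keratin probe sets for mandible against ulna, mandible against calvaria and calvaria against ulna, 1 point per probe set, grouped by keratin type, with called and not called points marked. In both comparisons with the mandible the basal and differentiated points lie mostly well above 0, the simple points lie between 0.34 and 1.12, and calvaria against ulna shows 1 call above 0 and 2 below it.

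Of the 7 simple keratin probe sets 2 were tested, and neither was called in any comparison with all arrays. Over all tested probe sets 9.36% were called higher in the mandible against the ulna and 4.09% against the calvaria. Both mandible arrays lay above both ulna arrays for 4 of the 7, beside 28.5% of all probe sets. They lay above both calvaria arrays for 5 of the 7, beside 24.3%. Krt8 and Krt18 are the pair of single-layered epithelia such as ducts. Krt18 had signals of 54.3 and 63.1 in the mandible, against 42.4 and 37.9 in the calvaria and 43.7 and 41.6 in the ulna. The mandible arrays were the highest, without overlap, by a small step. The log2 difference was 0.34 against the ulna (adjusted p = 0.364) and 0.51 against the calvaria (adjusted p = 0.244). Krt8, whose printed promoter lacks the element, had signals of 46.9 and 52.5 in the mandible, against 29.9 and 16.6 in the calvaria and 12.0 and 39.5 in the ulna, with differences of 1.07 (adjusted p = 0.165) and 1.12 (adjusted p = 0.209). Against the ulna its difference was 0.20 without ulna replicate 1, and 1.94 and called without ulna replicate 2 (adjusted p = 0.0283). Neither of the 2 tested simple keratins had an unadjusted p under 0.05. Krt7 and Krt19, which mark ducts and other glandular epithelium, and Krt20, known from gut epithelium and Merkel cells, failed the filter, as did 2 further Krt8 probe sets. Krt7 missed it narrowly, with mandible replicate 1 at 36.0 as its single value above an array median.

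Of the 20 hair keratin probe sets, 17 failed the filter, which 56% of all probe sets passed. Both mandible arrays lay above both ulna arrays for 9 of the 20, beside 28.5% of all probe sets. Krt27, a type I keratin of the inner root sheath, was the hair member with a call. Its signals were 50.9 and 79.0 in the mandible, against 2.71 and 1.48 in the calvaria and 1.79 and 6.59 in the ulna. The mandible arrays were the only ones above the array median. Krt27 was called higher against the calvaria (log2 4.94, adjusted p = 0.0483) and missed the threshold against the ulna (4.09 ± 1.59, adjusted p = 0.0595). It passed there with no filter (0.0152) and without calvaria replicate 1 (0.0305) or calvaria replicate 2 (0.0219). The call against the calvaria was lost without calvaria replicate 1 (adjusted p = 0.0532) or calvaria replicate 2 (0.0744), and with the floor its difference was 1.90-fold. Krt81, a type II keratin of the hair shaft, lay above the median on all 6 arrays at like levels, 66.1 and 74.1 in the mandible, 64.0 and 77.9 in the calvaria, and 73.0 and 37.9 in the ulna. Krt32, a hair type I keratin, had 53.6 and 25.9 in the mandible, 24.6 and 31.5 in the calvaria, and 31.8 and 30.6 in the ulna. The sites overlapped for both, and neither was called. Just outside the filter, Krt31 passed an array median on mandible replicate 2 alone (34.5).

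Among the genes not placed, Krt24, a type I keratin, differed between all 3 sites. Its signals were 140 and 119 in the mandible, against 46.5 and 29.5 in the calvaria and 4.12 and 9.37 in the ulna. The sites did not overlap, with the mandible highest and the ulna lowest. Krt24 was higher in the mandible by 4.26 ± 0.49 against the ulna (adjusted p = 4.3e-05) and by 1.76 ± 0.49 against the calvaria (adjusted p = 0.0254). With the floor at the array median these differences were 3.87-fold and 3.23-fold. The ulna difference was 3.66 without ulna replicate 1 and 4.86 without ulna replicate 2. The call against the calvaria was lost without mandible replicate 1 (adjusted p = 0.194), mandible replicate 2 (0.127), calvaria replicate 1 (0.0548) or calvaria replicate 2 (0.154).

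Krt42 had 387 and 359 in the mandible, 339 and 316 in the calvaria, and 290 and 306 in the ulna on the probe set with the higher signal. This was far above the median at every site, and the log2 difference of mandible over ulna was 0.21 (adjusted p = 0.134). A second Krt42 probe set lay between 11.4 and 56.7 over the 6 arrays, and the first one carries the suffix of probe sets that can bind several transcripts, so the even signal cannot be assigned to Krt42 with certainty. Krt80 ranged between 32.8 and 61.9 over the 6 arrays with the sites overlapping and was not called. Krt23, Krt79, Krt88 and Krt222 failed the filter. Of these Krt79 came nearest, with ulna replicate 1 at 45.9.

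Between calvaria and ulna, 1 of the 28 tested keratin probe sets was called higher and 2 were called lower in the calvaria. These shares were near those over all tested probe sets, and the signals behind the calls lay near or below the array medians. Krt24 was called higher in the calvaria than in the ulna (log2 2.50, adjusted p = 0.00288), with 6.9% of all tested probe sets called higher. Krt14 (−3.15 ± 0.31, adjusted p = 2.3e-05) and Krt5 (−2.25 ± 0.50, adjusted p = 0.00624) were called lower in the calvaria, with 4.95% of all tested probe sets called lower. All 4 Krt14 values behind this call lay below their array medians, and a second Krt14 probe set with a like mandible signal gave −0.38 (adjusted p = 0.714). The Krt5 difference was −1.25 without calvaria replicate 1 and −3.26 without calvaria replicate 2, and its call was lost without ulna replicate 2 (adjusted p = 0.0517). That of Krt24 was 1.90 without ulna replicate 1 and 3.10 without ulna replicate 2. With values under the array median raised to it, the differences became 0.26 for Krt24 (adjusted p = 0.429), 0 for Krt14 and −0.29 for Krt5 (adjusted p = 0.363), and none was called. Both calvaria arrays lay above both ulna arrays for 12 of the 61 keratin probe sets, beside 26.4% of all probe sets. Krt10, above the median at both sites, had a log2 difference of −0.84 ± 0.14 for calvaria over ulna (adjusted p = 0.00114), which is under 2-fold.

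The count in this comparison moved with single arrays. It was 5 without calvaria replicate 1, 5 without calvaria replicate 2 and 6 without ulna replicate 1, against 3 with all arrays. Without ulna replicate 2 it was 4, of which 3 were higher and 1 lower in the calvaria, against 1 higher and 2 lower with all arrays. It was 2 without mandible replicate 1 and 2 without mandible replicate 2, with 1 in each direction.

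Krt14, Krt13, Krt4 and Krt6a were each measured by more than 1 tested probe set, and within each gene these sets were all higher in the mandible, by different amounts. The second Krt14 probe set had 1388 and 1346 in the mandible, against 1.98 and 9.45 in the calvaria and 3.61 and 7.88 in the ulna, and was called in both comparisons with the mandible. The third had only 40.5 and 43.5 in the mandible, against 3.41 and 6.90 in the calvaria and 5.37 and 12.5 in the ulna. It was not called (adjusted p = 0.0983 against the ulna and 0.0526 against the calvaria). All 3 Krt6a probe sets were called in both comparisons, with log2 differences between 4.47 and 7.26 against the ulna. Both Krt4 probe sets were called in both. Of the 3 Krt13 probe sets, 1 with 97.3 and 105 in the mandible was called against the calvaria (adjusted p = 0.00454) but not against the ulna (adjusted p = 0.0895). A second Krt17 probe set failed the filter, with 4.98 and 16.6 in the mandible.

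Some close paralogs among keratins of 1 type are near-identical over long stretches, and 11 of the 61 keratin probe sets carry a suffix that marks probes shared between transcripts. Those of Krt14, Krt4 and Krt76 with the highest signals are among them, and signal from paralogs in them cannot be told apart. With the 11 left out, 12 keratin probe sets were called against the ulna and 14 against the calvaria. Krt5, Krt13, Krt6b, Krt14 and Krt4 each kept a called probe set without the suffix, while Krt76 had none. Probes without the suffix were not checked for matches to paralogs.

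By family, 8 of 15 tested type I probe sets and 9 of 13 tested type II probe sets were called higher in the mandible against the ulna (9.36% of all tested probe sets), with 10 of the 15 and 7 of the 13 past the filter through mandible arrays only. With no filter 11 of 33 type I and 9 of 28 type II probe sets were called higher (5.49% of all probe sets). The keratin genes lie in 2 clusters, type I on chromosome 11 and type II, with the type I gene Krt18 at its edge, on chromosome 15. In the RefSeq gene order of GRCm38.p6, the called genes Krt14, Krt16 and Krt17 were neighbours among the keratins measured, with Krt13 close by beyond Krt15 and Krt19. In the type II cluster Krt6b, Krt6a and Krt5 were adjacent, as were Krt76 and Krt4, with Krt78 beyond Krt79. Between these runs lay hair keratins and Krt2, Krt1 and Krt77, none of which was called against the ulna. Krt10 and Krt24 were apart from the other called type I genes, on either side of the inner root sheath genes Krt25 to Krt28.

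The anchors of keratin filaments were read from gene lists. In the desmosome list 8 of 10 tested genes were called higher in the mandible against the ulna and 9 of 10 against the calvaria (9.36% and 4.09% of all tested probe sets), with none lower and median log2 differences of 3.78 and 4.0. As with the keratins, 5 of the 10 had passed the filter through mandible arrays only. With no filter 9 and 8 of 11 were called higher (5.49% and 2.35% of all probe sets). Dsp, which encodes desmoplakin, the protein that ties keratin filaments to the desmosome, had signals of 795 and 965 in the mandible, against 18.5 and 16.5 in the calvaria and 71.4 and 68.5 in the ulna. The mandible arrays were high without overlap, as for Krt5 and Krt14 (log2 3.53 ± 0.18 against the ulna, adjusted p = 1.29e-07). Perp, a tetraspan protein of desmosomes, differed by 4.6 (adjusted p = 1.57e-08) and the plakophilin Pkp1 by 4.79 (adjusted p = 3.7e-05). The desmosomal cadherins Dsg2 and Dsc3 differed by 4.42 (adjusted p = 2.38e-06) and 4.21 (adjusted p = 0.00377). In the hemidesmosome list, 4 of 7 tested genes were called higher against the ulna and 5 of 7 against the calvaria (9.36% and 4.09% of all tested probe sets), with 3 of the 7 past the filter through mandible arrays only. With no filter 5 of 8 were called higher in each comparison (5.49% and 2.35% of all probe sets). The laminin chains Lama3 and Lamb3 (log2 7.01 and 5.82 against the ulna, adjusted p = 8.31e-06 and 1.48e-04) and the transmembrane collagen Col17a1 (5.43, adjusted p = 3.61e-04) were among those called. The tested genes not called against the ulna were Itga6 (−0.004), Plec (0.017) and Cd151 (0.22), and Itgb4 failed the filter.

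Of the cornified envelope list, proteins laid down under the membrane of differentiated keratinocytes, 7 of 10 tested genes were called higher in the mandible in each comparison, with medians of 2.38 against the ulna and 3.30 against the calvaria and 9.36% and 4.09% of all tested probe sets called. Of these 10, 5 had passed the filter through mandible arrays only. With no filter 8 of 13 were called higher in each comparison (5.49% and 2.35% of all probe sets). Sprr3, an envelope precursor of mucosa, differed by 8.19 against the ulna (adjusted p = 6.42e-05) and Krtdap, a keratinocyte differentiation protein, by 4.31 (adjusted p = 1.06e-06). The epidermal envelope proteins Ivl and Flg failed the filter. Lor, also in the list, lay above the median on all 6 arrays. It was called higher against the calvaria (1.14, adjusted p = 0.000685, limma) and not against the ulna (0.82, under 2-fold). Of 6 tested epithelial transcription factors, 2 were called higher against the ulna and 1 against the calvaria (9.36% and 4.09% of all tested probe sets). With no filter it was 1 of 10 in each (5.49% and 2.35% of all probe sets). The 2 called against the ulna, both past the filter through mandible arrays only, were Trp63, which drives basal keratinocyte identity (3.70 ± 0.45, adjusted p = 6.49e-05), and Grhl1 (3.03 ± 1.05, adjusted p = 0.0369). In the hair follicle list 2 of 3 tested genes, Msx2 and Dlx3, which are also tooth and bone genes, were called higher against the ulna. Against the calvaria 1 of 3, Msx2, was called higher (9.36% and 4.09% of all tested probe sets in the 2 comparisons). With no filter 2 of 9 and 1 of 9 were called higher (5.49% and 2.35% of all probe sets). Foxn1, Hoxc13 and Tchh, regulators and a structural protein of hair, failed the filter as most hair keratins did.

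**Figure D4:**
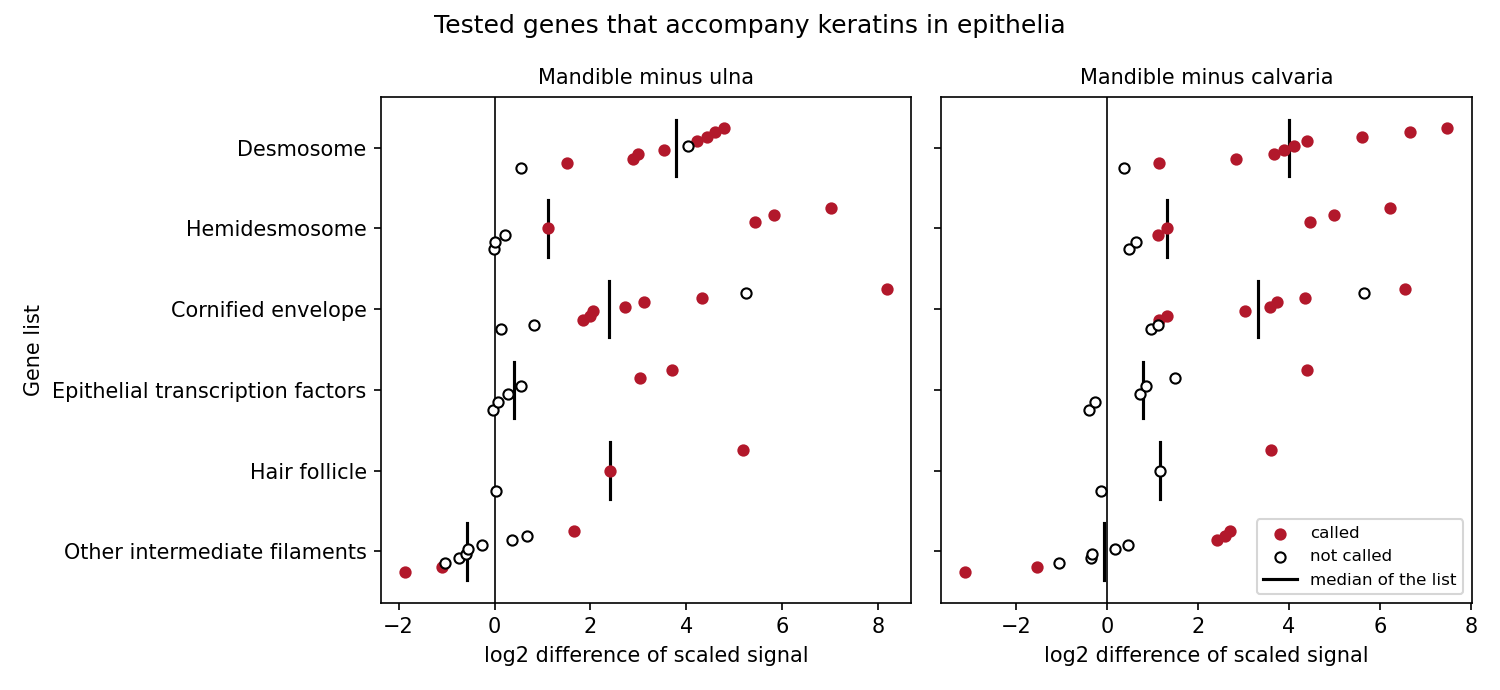
Log2 differences of the tested genes of each companion list for mandible against ulna and mandible against calvaria, 1 point per gene, with called and not called points marked, and a vertical bar for each list's median. The desmosome, hemidesmosome and cornified envelope points lie mostly above 0, and the other intermediate filament genes lie on both sides of 0.

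The non-keratin intermediate filaments were called in both directions. Of 10 tested genes, 1 was called higher and 2 lower in the mandible against the ulna (9.36% and 11.3% of all tested probe sets), with a median of −0.57. Against the calvaria 3 were called higher and 2 lower (4.09% and 3.48%), with a median of −0.08. Against the ulna Nes, the nestin gene of progenitor cells and nerve, was the higher one (1.65), and the lens filament gene Bfsp2 (−1.86) and the lamin Lmnb1 (−1.10) were lower. Vim, encoding vimentin, differed by 0.37, under 2-fold. Against the calvaria the muscle filament genes Des and Synm (2.70 and 2.60) and Nes (2.41) were higher, and the neuronal filament genes Nefl (−3.13) and Ina (−1.56) were lower.

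Among markers of other tissue in the samples, those of enamel epithelium and odontoblasts, and some of epithelium in general, had higher signals in the mandible, as many keratins did. None of the 4 tested meninges markers and 2 tested endothelium markers was called higher in the mandible in either comparison (9.36% and 4.09% of all tested probe sets). Against the calvaria 2 of the 4 meninges markers, Ptgds (log2 −5.21) and Foxc1 (−1.08), were called lower in the mandible (3.48% of all tested probe sets). All 7 tested genes of the enamel epithelium list were called higher in the mandible in both comparisons (9.36% and 4.09% of all tested probe sets), 6 of them past the filter through mandible arrays only, and their summed signal was 55940 and 56330 in the mandible, against 91.6 and 53.5 in the calvaria and 102 and 87.2 in the ulna. The odontoblast gene Dspp had 8582 and 8383 in the mandible, against 0.83 and 1.77 in the calvaria and 2.85 and 1.80 in the ulna. General epithelial markers had a summed signal of 545 and 547 in the mandible, against 113 and 132 in the calvaria and 60.3 and 138 in the ulna. Of these, 2 of 3 tested were called higher against the ulna and 1 against the calvaria (9.36% and 4.09% of all tested probe sets). Cdh1, which alone gave 339 and 376 of the mandible sums, was called in both and Epcam against the ulna only. Esrp1 was called in neither, and Cldn4 and Cldn7 failed the filter with the sites overlapping. With no filter 2 of 5 general epithelial markers were called higher in each comparison (5.49% and 2.35% of all probe sets). The part of enamel epithelium and of oral mucosa or skin left on the jaw in the keratin differences was not tested.

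Skeletal muscle markers, summed, were 20540 and 20460 in the mandible, 3332 and 3194 in the calvaria, and 20890 and 21150 in the ulna. A relation of muscle signal to keratin signal was not tested. The summed melanocyte signal was 98.9 and 76.3 in the mandible, against 42.4 and 93.3 in the calvaria and 85.2 and 36.7 in the ulna, where the sites overlapped, and its single tested gene, Dct, was called higher against the ulna. The bone markers Col1a1, Ibsp, Sp7 and Dmp1 were above the array median at all sites, with a summed signal of 19250 and 19660 in the mandible, 18390 and 19320 in the calvaria, and 4411 and 4339 in the ulna.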

How the data were processed

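The deposited table holds MAS5 signal intensity on a linear scale, scaled by the authors so that the 2% trimmed mean of each array is 100. Symbols came from the platform annotation (34958 probe sets with 1, 932 with several, 9211 with none), and 64 control probe sets were left out. Signals were divided by the array median and put on the log2 scale with no offset. The methods name a normalization per chip, without its measure, and one per gene, which was not applied here. The median log2 difference of mandible over ulna over all tested probe sets was −0.13 this way and −0.02 with the deposited scaling. All 6 arrays were fitted with limma 3.58.1 in R 4.3.3 (a mean per site, with an intensity trend), with Benjamini-Hochberg adjustment over the 25233 tested probe sets (56%). The fit had 3 residual and 7.67 prior degrees of freedom and was tested on simulated data. The number of arrays limits the precision. Alternatives covered the scaling, filter, floor, offset, test, replicate block and single arrays.

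Each gene is given by its tested probe set with the highest mean log2 signal. Keratins were named where called in any comparison, with the 2 of highest mean in a type with fewer than 2 called, and list genes as up to 4 called genes with the largest absolute log2 difference between mandible and ulna. Krt1, Krt2, Krt42, Krt80, members near the filter and list genes that failed it were named after their values were seen. So were other list genes outside this rule, such as Dsp, Lor and Vim. Members and lists were chosen with earlier results of these data known.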

Additional observations from a re-analysis of the deposited data

How the results depend on the processing

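The count of called keratin probe sets was 17 for mandible against ulna, 20 for mandible against calvaria and 3 for calvaria against ulna. The methods' analysis of variance, which takes the spread of each probe set from its own arrays, gave 6, 0 and 0. At an unadjusted p under 0.05 with a 2-fold change it gave 17, 17 and 2, and for mandible against calvaria it called 0 of all 25233 probe sets after adjustment. Without moderation 8 were called for mandible against calvaria. With the floor at the array median 0 were called for calvaria against ulna, where 0 passed an unadjusted p under 0.05 with a 2-fold change. Leaving out 1 array at a time gave 4 to 20 for mandible against ulna, 3 to 21 for mandible against calvaria and 2 to 6 for calvaria against ulna. With the same probe sets tested, an alternative added after seeing the data, the ranges were 13 to 20, 12 to 21 and 3 to 6 (5 for calvaria against ulna without either calvaria array, 6 without ulna replicate 1). No called keratin gene had a difference of the opposite sign under any alternative run. For Krt14 the difference for calvaria against ulna was 0 with the floor at the array median. In that comparison the split of calls into higher and lower also moved with single arrays.

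Same-numbered arrays did not deviate together over the tested probe sets (r = −0.00481 for mandible and calvaria, −0.0123 for mandible and ulna, 0.00585 for calvaria and ulna). With 2 arrays per site this cannot tell whether same-numbered arrays come from the same mice. With the replicate number as a block, 17, 17 and 3 were called. Leaving out the probe sets with shared probes, also added after seeing the data, gave 12, 14 and 2. Keratin values in the calvaria and ulna lay mostly below the array median, where the SD between arrays was 0.61 on the log2 scale.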
